A study of Mus musculus with 8 samples.

Results

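Kruppel-like factors (Klf) are DNA-binding proteins, and 10 genes of this family with roles in nociceptor survival or axon growth were followed in dorsal root ganglia (DRG) of E18.5 mouse embryos: Klf2, Klf3, Klf4, Klf5, Klf6, Klf7, Klf9, Klf10, Klf12 and Klf13. They were taken by gene symbol and known role, with earlier results of these data known, from 17 Klf genes among 55414 listed genes, and all 10 were among the 17721 genes abundant enough to be tested. Transcripts were measured by bulk RNA-seq in 2 groups of 4 libraries. AD1 OE embryos (AdvillinCre/+;Rosa26Dach1/+) carried Cre at the Advillin gene, a gene of sensory neurons, and 1 copy of a Dach1-IRES-EGFP cassette at Rosa26 that Cre frees from a stop sequence. Control embryos (Advillin+/+;Rosa26Dach1/+) carried the same silent cassette and no Cre. The groups thus differed in Dach1 expression, in Cre, in the EGFP encoded by the freed cassette and in the Advillin allele itself. These differences cannot be told apart here. The Rosa26Dach1 line was of mixed C57Bl/6J and CD1 background, and AD1 OE pups die around birth. The ganglia held neurons and glia, so fewer cells of a type and less RNA per cell cannot be told apart.

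Every Klf protein ends in a row of Cys2-His2 zinc fingers that read GC-rich and CACCC sequences, and the members differ mainly in the part before the fingers, which recruits activators or repressors. Family members often bind the same sites and compete for them. In sensory neurons, Klf7 is known for its part in the survival of nociceptors, and in central neurons Klf6 and Klf7 favour axon growth whereas Klf4 and Klf9 oppose it.

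The fingers were compared first, because they are the part by which reads of one member could be mistaken for those of another. In the GENCODE M21 transcripts (GRCm38), all 10 members held 3 fingers in a stretch of 243 bases. The third finger of 6 members is shown with the codons of its paired cysteines and paired histidines in capitals: Klf5, the member that changed, then the 3 members whose bases over all fingers were nearest to it, then the 2 farthest.
Klf5: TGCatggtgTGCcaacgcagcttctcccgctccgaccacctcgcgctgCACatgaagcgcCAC
Klf3: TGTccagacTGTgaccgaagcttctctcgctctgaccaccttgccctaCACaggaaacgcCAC
Klf7: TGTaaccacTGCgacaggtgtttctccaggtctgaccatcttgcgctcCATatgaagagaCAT
Klf12: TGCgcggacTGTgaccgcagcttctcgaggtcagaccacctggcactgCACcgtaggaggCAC
Klf9: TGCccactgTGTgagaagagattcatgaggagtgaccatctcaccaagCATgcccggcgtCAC
Klf10: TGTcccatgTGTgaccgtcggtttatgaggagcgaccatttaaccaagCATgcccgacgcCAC
Over the 3 fingers, the residues of Klf3 and Klf7 were 86.4% identical to those of Klf5 and those of Klf12 84.0%, against 64.2% for Klf9 and 65.4% for Klf10 and Klf13. The bases were less alike, with 74.5% identity to Klf5 in Klf12 and 57.2% in Klf10. Shared runs were measured over whole transcripts, not over the fingers alone, and their place in the transcript was not recorded. The longest run of bases that Klf5 shared with another member was 24, with Klf9. The longest between any members was 41, between Klf3 and Klf12.

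The libraries held 22339059 to 44025625 counts assigned to genes. Dach1, which checks the labels, was at 91.5 to 102 CPM (counts relative to the scaled library total) in AD1 OE and at 30.2 to 33.7 CPM in Control, and Avil, the Advillin gene, at 450 to 478 CPM against 840 to 919 CPM. Transcripts of the sex chromosomes, since the labels give no sex, marked AD1 OE 1, 2 and 4 and Control 4 as male and the other 4 libraries as female, so sex was unbalanced between the groups. Marker transcripts of spinal cord, 8 genes of which 5 were tested, stood apart in Control 1 and Control 4, at summed levels of 21.9 and 11.4 CPM against 2.46 to 5.47 CPM in the other libraries, and Mnx1 was at 0 counts in 6 of 8 libraries. Markers of DRG neurons were abundant throughout, with 10119 to 10707 CPM in AD1 OE and 10409 to 10830 CPM in Control. The study gives its n for this comparison in embryos, and the labels do not tie single libraries to embryos, so p-values measure the spread between these libraries.

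Klf5 was the only member called, and it fell. Klf5 (ENSMUSG00000005148, chromosome 14), a regulator of proliferation best known from epithelia and vascular smooth muscle, was at 34.2, 38.4, 35.5 and 32.6 CPM in AD1 OE 1 to 4 and at 55.3, 56.7, 53.9 and 55.4 CPM in Control 1 to 4. The groups did not overlap, and the Control libraries lay close together, with a coefficient of variation of 2.02% against 6.93% in AD1 OE. The AD1 OE mean of 35.2 ± 2.44 CPM was 63.6% of the Control mean of 55.3 ± 1.12 CPM (SD, n = 4 each). On the log2 scale this was -0.66 ± 0.05 (fold change ± SE; adjusted p = 1.28e-05 by the quasi-likelihood test of edgeR with Benjamini-Hochberg adjustment), and the 95% interval of the change ran from -41.4% to -31.3%.

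A gene was called at an adjusted p under 0.005 with an absolute log2 fold change over 0.25. By this rule 1 of 10 members was called, against 2.57% of all tested genes, and 1 was called lower, against 1.78%. No member was called higher, where the background was 0.784%. With the adjusted p limit at 0.05 and any fold change, the members' count was again 1, against 6.55% of all genes, and the groups did not overlap for 1 member, against 13.0%. A single gene carries each of these counts, and nothing is read from them about the family. Klf5 was not at the extreme of the response: among 316 genes called lower, 140 had a larger decrease.

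**Figure D1:**
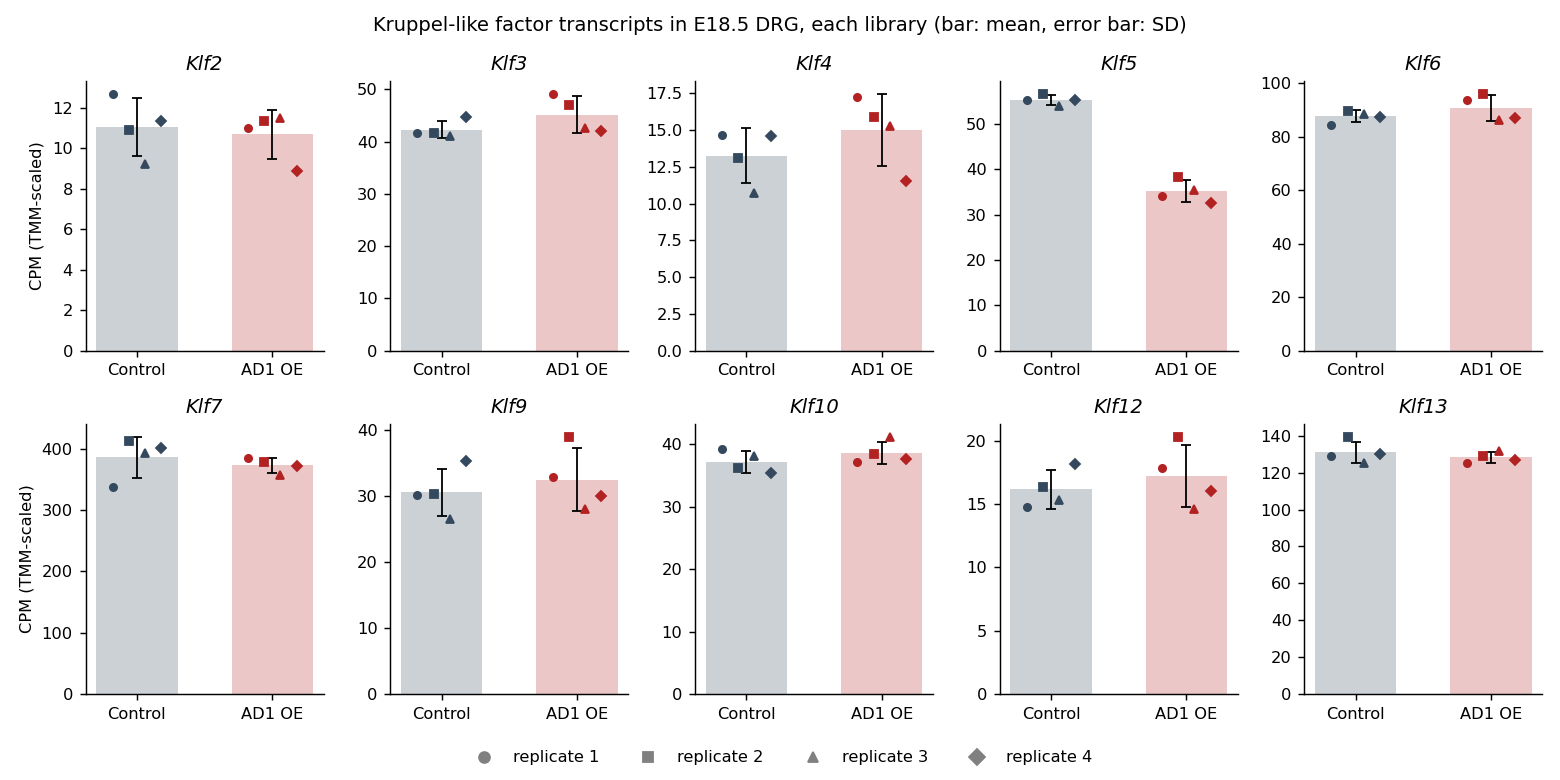
Transcript levels of the 10 Klf members in each library, in CPM scaled by TMM. Points are libraries, marked by replicate number, bars are group means and error bars are SD (n = 4). For Klf5, all AD1 OE libraries (32.6 to 38.4 CPM) lie below all Control libraries (53.9 to 56.7 CPM). For the other 9 members the groups overlap.

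The other 9 members lay between -0.05 and 0.18 on the log2 fold change scale, with adjusted p values from 0.429 to 0.871 (edgeR quasi-likelihood test) and unadjusted p values of at least 0.131. The lowest end of their 95% intervals was a change of -17.5%, for Klf2, and the highest was 37.2%, for Klf4. Over all 10 members the median log2 fold change was 0.05 and over all genes tested it was 0.00, with 6 members above and 4 below 0.

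Among the members that favour axon growth, Klf7 was the most abundant. Klf7 was at 384, 379, 357 and 371 CPM in AD1 OE 1 to 4 and at 338, 413, 393 and 400 CPM in Control 1 to 4. Control 1 was the lowest of all libraries and the other Control libraries were the 3 highest, so the groups overlapped. Its log2 fold change was -0.05 (edgeR adjusted p = 0.719), with a 95% interval from -11.7% to 5.69%. Klf6, the other member that favours growth, was between 86.3 and 96.1 CPM in AD1 OE and between 84.6 and 89.9 in Control, with a 95% interval from -2.79% to 10.4%. A decrease of the size measured for Klf5 lies outside both intervals.

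Klf4 and Klf9 oppose axon growth. Klf4, also one of the factors that reprogramme fibroblasts to pluripotency, was at 17.3, 15.9, 15.3 and 11.5 CPM in AD1 OE 1 to 4 and at 14.7, 13.1, 10.7 and 14.6 CPM in Control 1 to 4. AD1 OE 1 to 3 lay above every Control library and AD1 OE 4 lay below all Control libraries but Control 3. The log2 fold change of 0.18 (edgeR adjusted p = 0.504) had a 95% interval from -6.60% to 37.2%, so a change of moderate size in Klf4 was not detectable at this spread. Klf9, a target of glucocorticoid and thyroid hormone, was at 32.9, 38.9, 28.0 and 30.0 CPM in AD1 OE 1 to 4 and at 30.1, 30.3, 26.5 and 35.2 CPM in Control 1 to 4. Its groups overlapped, and with the sex score as a covariate its log2 fold change turned from 0.08 to -0.08 (edgeR adjusted p = 0.763).

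Klf2, a factor of endothelial cells exposed to flow and of resting T cells, was at 11.0, 11.4, 11.5 and 8.89 CPM in AD1 OE 1 to 4 and at 12.7, 10.9, 9.24 and 11.3 CPM in Control 1 to 4. Its log2 fold change of -0.05 (edgeR adjusted p = 0.871) turned to 0.04 without AD1 OE 4. Klf2 and Klf4 were both lowest in AD1 OE 4 and Control 3 within their groups. The summed level of 10 endothelial markers was 419, 385, 455 and 382 CPM in AD1 OE 1 to 4 and 408 to 416 CPM in Control. That sum was lowest in AD1 OE 4 but not low in Control 3, and no endothelial marker was called; Pecam1 and Cdh5 had log2 fold changes of -0.01 and 0.09. The part of endothelial cells in the Klf2 and Klf4 values was not tested.

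The repressor members Klf3 and Klf12 act through the corepressor CtBP. Klf3 was between 42.0 and 49.1 CPM in AD1 OE and between 41.0 and 44.8 in Control, and its log2 fold change of 0.10 had a 95% interval from -2.26% to 16.8%. Klf12 was between 14.7 and 20.3 CPM in AD1 OE and between 14.8 and 18.2 in Control. Its log2 fold change was 0.09 and, with the sex score as a covariate, -0.07 (edgeR adjusted p = 0.807). Klf3 and Klf7 share exons with genes on the opposite strand, Gm20033 for Klf3 and Gm13748 and Gm26649 for Klf7, and since it is not stated whether the counting used the strand, their counts are uncertain there. No exon of Klf5 overlapped another gene.

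Klf10, an early response gene of TGF-beta signalling, and Klf13, a regulator first described in T cells, bind the corepressor Sin3a as Klf9 does. Klf10 was between 37.1 and 41.2 CPM in AD1 OE and between 35.4 and 39.3 in Control, and Klf13 at 125 to 132 CPM and 125 to 139 CPM. Klf13 had the narrowest interval of the 10 members, from -7.51% to 3.67%.

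**Figure D2:**
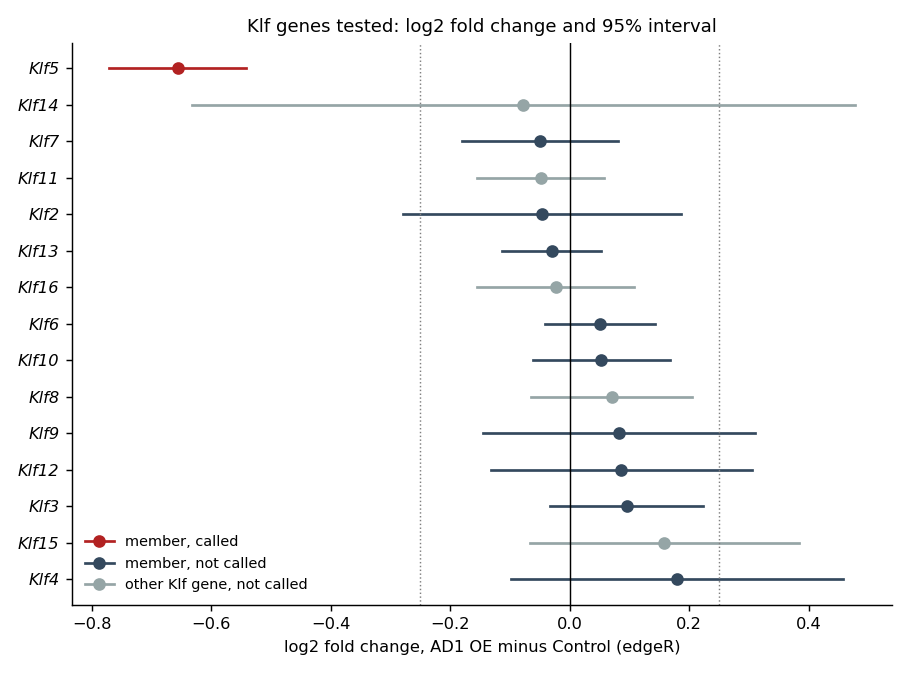
Log2 fold change of the 15 tested Klf genes, AD1 OE minus Control, with 95% intervals from the edgeR fit. Dotted lines mark the limit of 0.25 on the log2 scale. Only the interval of Klf5 excludes 0; the widest belongs to Klf14, which was at 1.18 CPM in AD1 OE libraries and 1.27 in Control.

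Of the other 7 Klf genes, 5 were tested (Klf8, Klf11, Klf14, Klf15 and Klf16) and none was called, with log2 fold changes from -0.08 to 0.16. Klf1, the erythroid member, held 2 to 17 counts in a library and Klf17 held at most 2, and neither was tested. Of the 9 Sp genes, the sister family that reads the same GC boxes, 6 were tested and none was called. The groups did not overlap for 1 of these 5 tested Klf genes, Klf11, against 13.0% of all tested genes. Klf11 was between 21.4 and 22.9 CPM in AD1 OE and between 23.0 and 23.1 in Control (edgeR adjusted p = 0.652).

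Levels were compared between genes as CPM per kb of exon. In Control, Klf7 stood first at 47.5 ± 4.09 CPM per kb (SD, n = 4), with a range of 41.5 to 50.7. Klf6 followed at 19.97 ± 0.516 and Klf13 at 17.4 ± 0.785 CPM per kb, and none of these ranges overlapped. Over the longest transcript, Klf6 at 20.8 and Klf13 at 20.5 CPM per kb overlapped, with ranges of 20.02 to 21.3 and 19.6 to 21.8. Klf5 came next, at 10.6 ± 0.215 CPM per kb in Control, and stood below Klf10 in AD1 OE, at 6.76 ± 0.469 against 9.24 ± 0.431 CPM per kb. Its level depended on the length used: over the longest transcript Klf5 was at 16.5 CPM per kb in Control and 10.5 in AD1 OE, still between Klf13 and Klf10 in Control and below Klf10, at 12.7, in AD1 OE. Klf2 and Klf9 could not be ordered by their spread, at 5.98 ± 0.770 and 6.34 ± 0.747 CPM per kb in Control. Klf3 stood at 3.76 CPM per kb over all its exons but at 8.10 CPM per kb over its longest transcript, so its place among the members changed with the length. Klf12 was the lowest member at 2.32 ± 0.218 CPM per kb.

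**Figure D3:**
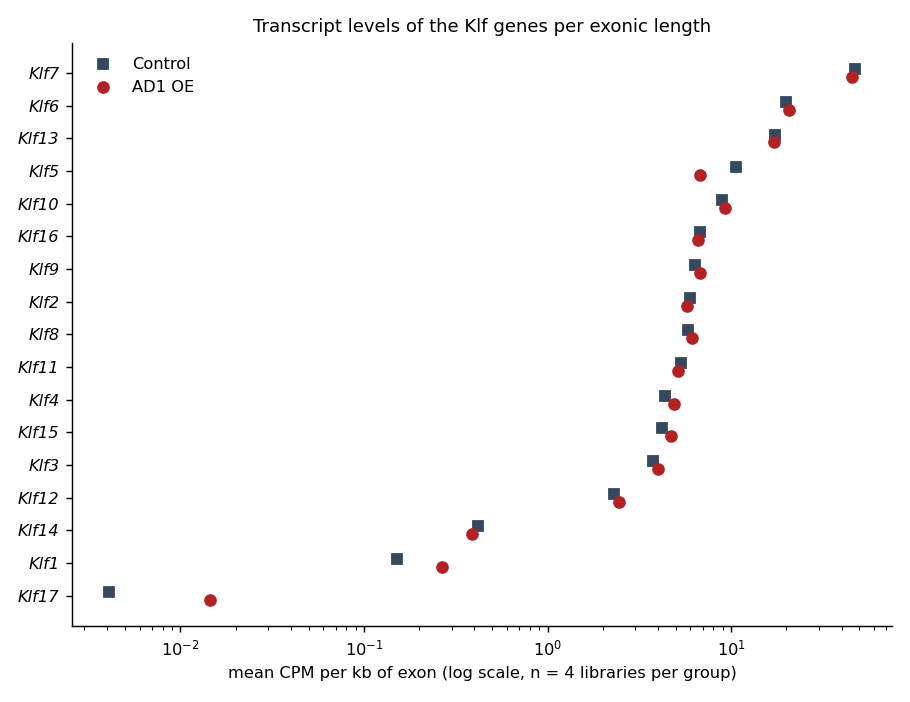
Mean CPM per kb of exon of the 17 Klf genes on a log scale, for Control (squares) and AD1 OE (circles), n = 4 libraries each. Klf7 is highest in both groups, at 47.5 and 45.8 CPM per kb, and the marks of Klf5 are apart, at 10.6 and 6.76 CPM per kb.

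Klf5 lies on chromosome 14, as Dach1 does. In the RefSeq gene order (GRCm38.p6), 4 protein-coding genes, Mzt1, Bora, Dis3 and Pibf1, stand between Dach1 and Klf5, and Klf12 follows Klf5 directly. None of the 4 was called: their log2 fold changes were -0.02, 0.17, 0.08 and 0.09, and the lowest adjusted p among them was 0.224, for Bora (edgeR quasi-likelihood test). Neither Pibf1 nor Klf12, the nearest neighbours on either side, was called. Counts per gene do not separate the Dach1 transcripts of the Rosa26 cassette, on another chromosome, from those of the Dach1 gene on chromosome 14.

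Genes for nociceptor identity, survival and axon growth were chosen by theme and read from the same fit. Whether the members act through them was not tested. Of 18 genes for nociceptor identity and survival, all tested, 1 was called higher, against 0.784% of all tested genes, and none lower. Cdkn1a, which encodes the cell cycle inhibitor p21 and is a target of several Klf proteins, was at 97.8, 92.7, 103.9 and 89.9 CPM in AD1 OE 1 to 4 and at 76.9, 82.0, 78.4 and 82.4 CPM in Control 1 to 4. The groups did not overlap, and Cdkn1a rose by 0.27 on the log2 scale (edgeR adjusted p = 0.00484). This call lay at the threshold and was lost in 11 of 18 alternative fits, where the adjusted p reached 0.0423 at most. Cdkn1a shares exons with AC167363.2 on the opposite strand, so its count is uncertain there. Bcl2, an inhibitor of apoptosis, had a log2 fold change of -0.22 (edgeR adjusted p = 0.00751), past 0.05 but not called. Bcl2 also shares exons with a gene on the opposite strand, D630008O14Rik, with the same uncertainty.

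Of 20 axon growth genes, 19 were tested and 1 was called higher, against 0.784% of all tested genes. Sox11, a transcription factor of growing and regenerating sensory axons, was at 85.0, 82.2, 91.6 and 81.0 CPM in AD1 OE 1 to 4 and at 61.4, 64.6, 63.9 and 59.3 CPM in Control 1 to 4. The groups did not overlap, and Sox11 rose by 0.45 ± 0.05 (SE) on the log2 scale (edgeR adjusted p = 0.000105). Gap43 and L1cam, proteins of the growth cone and the axon surface, had log2 fold changes of -0.06 and -0.03, and Crmp1, a collapsin response protein, had -0.23 (edgeR adjusted p = 0.0264).

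Upstream and partner genes gave 1 call. In the ERK5-MEF2 pathway, which induces Klf2 and Klf4 in endothelial cells, 1 of 7 genes was called, against 2.57% of all tested genes. Mef2c was at 101, 110, 101 and 106 CPM in AD1 OE 1 to 4 and at 70.3, 82.2, 83.4 and 83.4 CPM in Control 1 to 4. The groups did not overlap, and Mef2c rose by 0.38 on the log2 scale (edgeR adjusted p = 0.000999). The study also reported Mef2c as raised in AD1 OE and checked it by immunostaining of E18.5 ganglia, where stained neurons were counted. The cell type behind the rise was not tested here. With the sex score as a covariate its log2 fold change was 0.34 and it was no longer called (edgeR adjusted p = 0.00824). Mapk7, which encodes ERK5, had a log2 fold change of 0.03. None of 16 genes for Klf cofactors and turnover was called, among them Ctbp1 at -0.09, Ctbp2 at 0.01, Sin3a at 0.10 and the ubiquitin ligase genes Wwp1 at 0.06 and Fbxw7 at 0.10 on the log2 fold change scale.

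Lists of inducers of Klf genes were also chosen by theme, and their action on the members was not tested. Of 16 stress and immediate early genes none was called and 2 were past an adjusted p of 0.05, against 6.55% of all genes: Fos at 0.49 and Hspa1b at 0.82 on the log2 fold change scale, whereas Egr1 was at -0.05. Of 19 glucocorticoid and clock genes none was called and 2 were past 0.05, Nr3c1, the glucocorticoid receptor gene, at 0.20 (edgeR adjusted p = 0.0211) and Tef, a clock output gene, at 0.12 (edgeR adjusted p = 0.0384). Fkbp5 was at 0.18 and Per1 at 0.14. Of 12 TGF-beta pathway genes none was called and 2 were past 0.05, the signal transducer gene Smad2 at 0.16 and Skil, which encodes an inhibitor of the pathway, at 0.20. The median log2 fold change was 0.06, 0.09 and 0.11 in these lists, against 0.00 over all genes tested.

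**Figure D4:**
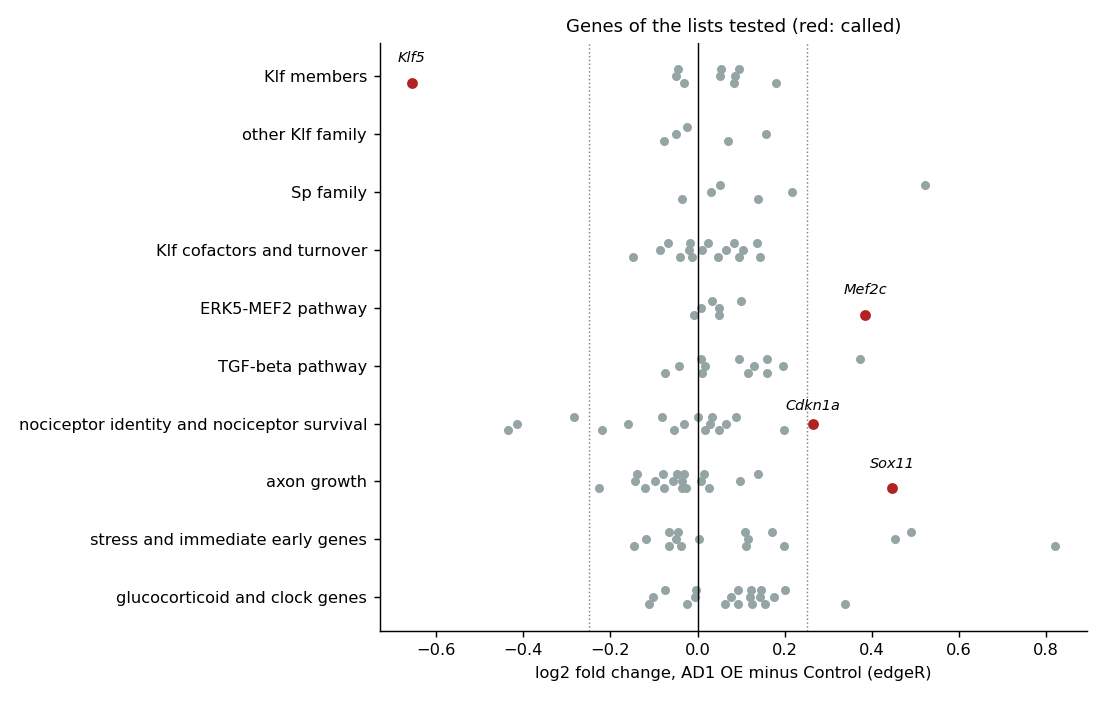
Log2 fold change of tested genes, AD1 OE minus Control, by list. Red points are called genes, grey points are the other genes, and dotted lines mark the limit of 0.25 on the log2 scale. Klf5 is the only called gene on the left, at -0.66, and Mef2c, Cdkn1a and Sox11 are the called genes on the right.

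No marker list of another cell type was separated between the groups by an exact permutation test of its summed level (two-sided; the smallest possible p is 0.0286). Mural cells, in whose smooth muscle relatives Klf5 is known, had summed levels between 277 and 308 CPM in AD1 OE and between 284 and 302 in Control (p = 0.6, exact permutation test), and none of their 8 markers was called. Fibroblast markers summed to 5871 to 6639 CPM in AD1 OE and 5025 to 6147 CPM in Control (p = 0.0857, exact permutation test, and 0.629 adjusted over 11 lists). With a smallest possible p of 0.0286, no list alone could reach an adjusted p under 0.05, so the adjusted value decides nothing here. Of 8 fibroblast markers none was called and 6 had a log2 fold change above 0, against 8956 of 17721 genes tested. An unadjusted p under 0.05 was reached by 4, against 3296 of all genes tested (edgeR quasi-likelihood test). Only 1, Pdgfra at 0.23, was past an adjusted p of 0.05 (edgeR adjusted p = 0.0232), against 6.55% of all genes. The part of these cells in the decrease of Klf5 was not tested. Without Control 1 and 4, the libraries high in spinal cord markers, the log2 fold change of Klf5 was -0.65 (edgeR adjusted p = 0.000513). Control 4 was the only male Control library, so that fit left only female Control libraries. With all libraries and the sex score as a covariate, the log2 fold change of Klf5 was -0.65 (edgeR adjusted p = 7.0e-05).

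**Figure D5:**
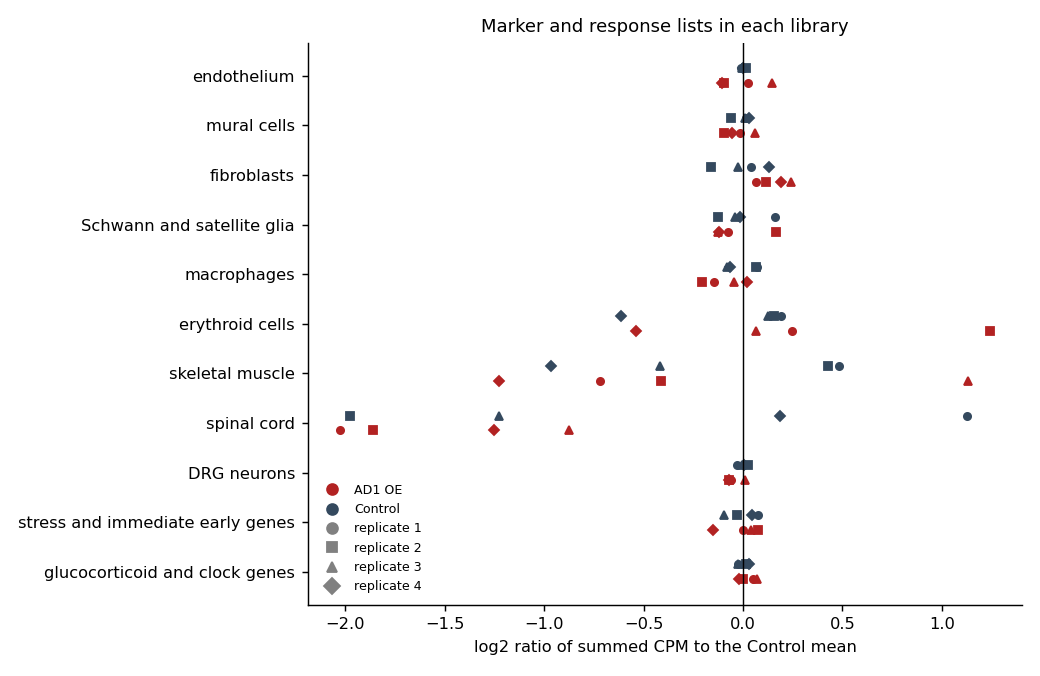
Summed CPM of 9 marker lists and 2 response lists in each library, as the log2 ratio to the Control mean. Colours are groups and symbols are replicate numbers. Spinal cord, skeletal muscle and erythroid sums spread most between libraries, and the endothelial, mural and neuronal sums stay near 0.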

How the data were processed

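Per the labels and the study's methods, the authors sequenced stranded poly(A) libraries, aligned the reads to GRCm39 (STAR 2.7.8a) and assigned them to Ensembl genes (featureCounts 2.0.1). They deposited raw counts, 1 file per library, neither normalized nor pooled. Groups and replicate numbers came from the sample titles. The comparison was made with edgeR 4.0.16 under R 4.3.3 (filterByExpr, TMM scaling, quasi-likelihood F test, genotype as the only term, Benjamini-Hochberg adjustment over 17721 genes). Intervals use the fit's degrees of freedom. Calls used the thresholds that the study set for this comparison, a limit of 0.005 on the adjusted p and of 0.25 on the absolute log2 fold change. CPM values are TMM-scaled.

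Symbols, exons and transcripts came from GENCODE M21 (GRCm38), where 52081 of 55414 IDs had a symbol, and no coordinates are given. Named genes are the members, the called genes of each list, the genes that define a list (1 of them is not reported or plotted here) and the neighbours of Klf5; Bcl2, Crmp1, Hspa1b, Tef, Smad2, Skil, Pdgfra, Sin3a, Wwp1 and Fbxw7 were chosen after their values were seen. The members and lists were chosen with earlier results of these data known. Alternatives were DESeq2 1.42.0, limma-voom (limma 3.58.1), other scalings, filters and thresholds, the replicate number as a block, a sex score (Uty, Kdm5d, Ddx3y and Eif2s3y against Xist, as a log2 ratio) and leaving out each library. The fit was tested on simulated data. Replicates differed by more than counting noise (chi-square per degree of freedom 4.34 to 12.2), and the common biological coefficient of variation was 8.22%.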

Additional observations from a re-analysis of the deposited data

Results flagged for a closer look

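Of 52 groups of 4 libraries tested for a library far from the other 3, 3 were flagged, where chance flags about 1 group in 20; none was a Klf gene. The summed level of Schwann and satellite glia markers was 1950 CPM in AD1 OE 2, against 1594 to 1650 CPM in the other AD1 OE libraries. Erythroid markers summed to 225 CPM in Control 4, against 374 to 392 CPM in the other Control libraries. Markers of DRG neurons summed to 10707 CPM in AD1 OE 3, against 10119 to 10209 CPM in the other AD1 OE libraries.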

How the results depend on the processing

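Klf5 stayed called in all 18 alternative fits, with log2 fold changes from -0.70 to -0.62 and adjusted p values of at most 0.000513 (edgeR, DESeq2 or limma-voom), and the count of called members stayed at 1. It was 0 only where an absolute log2 fold change over 1 was required. The count over all genes was 455 with edgeR and 657 with DESeq2, the tool the study used, at the same thresholds. The edgeR count was 747 with no filter on low counts and 1161 where any fold change past an adjusted p of 0.05 counted. It was 129 with that p and a log2 fold change over 1, and 289 to 420 without 1 library, lowest without AD1 OE 1. With the sex score as a covariate it was 329. It was 254 without Control 1 and 4, an alternative chosen after seeing the data. Apart from the filter and thresholds themselves, the causes were not tested.

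Same-numbered libraries of the groups correlated at -0.01, -0.05, -0.04 and 0.31. Differently numbered libraries were not compared, so whether the numbers pair the libraries was not settled. AD1 OE 4 and Control 4, at 0.31, were both male, and AD1 OE 3 and Control 3, at -0.04, were both female. With the replicate number as a block (replicate block), 348 genes were called, the log2 fold change of Klf5 was -0.66 (edgeR adjusted p = 0.000112) and Cdkn1a was not called (edgeR adjusted p = 0.021).

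Among the members, signs turned only for uncalled log2 fold changes near 0. Klf2 was at 0.085 without Control 1 and 4, and with the sex score Klf9 was at -0.082 and Klf12 at -0.070. Without 1 library, Klf2 ranged from -0.117 to 0.037, Klf9 from -0.0093 to 0.165 and Klf13 from -0.048 to 0.00052. Log2 ratios of summed marker levels turned without 1 library for endothelium (-0.057 to 0.030), glia (-0.107 to 0.024), erythroid cells (-0.038 to 0.616), skeletal muscle (-0.748 to 0.243) and stress genes (-0.038 to 0.039), and stress genes stood at 0.090 as a mean of log2(CPM + 1).

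The spread between libraries set what was detectable in a member: for Klf4, at 13.3 CPM in Control, the 95% interval reached 37.2%.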
